A study of Mus musculus with 4 samples.

Results

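Igfbp4, Ptprs, Rnf157, Aff3, Trib2, Ephb6, P2ry10 and Il16 are 8 mouse genes, most of them known from lymphocytes, that were picked because their transcripts were higher in T helper cell cultures given an inhibitor of the protein kinase CK2. They were matched by symbol, and all 8 were found among 37583 features and among the 9629 genes that passed the filter on low counts. They were chosen by the ratio of exon reads in each inhibitor library to its control, so those ratios are given as a description with no test.

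The study asked what blocking CK2 does to the transcriptome of naive CD4+ T cells driven towards the Th17 fate. CK2 is a serine/threonine kinase, built from catalytic and regulatory subunits, that is active without an upstream signal. The tested libraries came from a culture with 1.5 µM DMAT and a culture with 1 µM CX4945, both small-molecule CK2 inhibitors, and each has its own control library from a culture without that compound. In all 4 cultures, naive CD4+ cells sorted from the spleen of C57BL/6 mice were stimulated for 24 h on plates coated with antibodies to CD3 and CD28, with IL-1β and IL-6 at 10 ng/ml each, IL-23 at 20 ng/ml, and neutralizing anti-IL-4 and anti-IFN-γ at 10 µg/ml each (the labels' aTh17 condition). Neither the age of the mice, the number of animals behind a library nor the solvent given to the controls is stated. With 1 library per group there is no replicate check on any ratio, and the compounds differ in dose and in experiment, so their values stand side by side without a comparison.

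The libraries held 2523446 (DMAT), 2772525 (its control), 2056635 (CX4945) and 2285545 (its control) exon reads. A count of 3 reads, taken as the floor for a single gene, corresponds to 1.08 to 1.47 CPM (exon reads scaled to a common library size). The 12 T cell markers summed to 3690 CPM with DMAT and 3790 CPM with CX4945, against 3460 and 3600 CPM in their controls. The 11 B cell markers in the tables, relevant because Aff3 and P2ry10 are also B cell transcripts, summed to 3.53 and 0.982 CPM in the DMAT and CX4945 libraries and to 3.24 and 0.876 CPM in their controls, and Cd79b, Ms4a1 and Blk had no read in any library. Sums were also low in every library for markers of myeloid cells (at most 4.42 CPM), dendritic cells (1.47), NK cells (2.95), CD8 T cells (5.4) and erythroid cells or platelets (1.96). Of their genes, 5 of 10, 4 of 7, 6 of 7, 1 of 4 and 7 of 8 were at 0 throughout. The 7 stromal or epithelial markers, 4 of them at 0, summed to 13.3 and 35.9 CPM with DMAT and CX4945 against 21.3 and 27.1 CPM in the controls, most of it from Pecam1, which T cells also express. The 10 Th17 markers summed to 426 CPM with DMAT and 441 CPM with CX4945, against 944 and 777 CPM in the controls. In the joint fit of both experiments 5 of the 9 tested fell, where 0.384% of all 9629 genes fell. Over all genes, just 1 fell without the pair as a block and 1 with DESeq2. The part of the lower Th17 markers in the values of the 8 genes was not tested. In bulk RNA, fewer cells of a kind and less RNA per cell cannot be told apart.

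The 8 genes act at different places. Ephb6, P2ry10 and Ptprs encode receptors at the cell surface. Igfbp4 and Il16 give rise to secreted proteins, while Trib2, Rnf157 and Aff3 act inside the cell, as a pseudokinase scaffold, a ubiquitin ligase and a nuclear factor. On activation, T cells leave a resting state in which they express receptors for recirculation through lymph nodes, and in mouse T cells the Igfbp4 transcript is commonly listed among those of the naive state.

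The 250 bases before the annotated starts are shown for 4 of the genes because they run from AT-rich to the most GC-rich of the 12 windows and hold 5 of the motifs found. They are from RefSeq (GRCm38.p6, a later build than the mm9 of the count tables), 5′ to 3′ on the gene's strand, with matches to the searched motifs in capitals: the TATA box in Igfbp4, the GC box in Aff3, the E-box in Ptprs, and AP-1 then TCF/LEF in P2ry10. The windows lie at chr11:99040994-99041243 (plus strand) for Igfbp4, chr1:38627245-38627494 (minus strand) for Aff3, chr17:56476481-56476730 (minus strand) for Ptprs, and chrX:107088242-107088491 (plus strand) for P2ry10.
Igfbp4: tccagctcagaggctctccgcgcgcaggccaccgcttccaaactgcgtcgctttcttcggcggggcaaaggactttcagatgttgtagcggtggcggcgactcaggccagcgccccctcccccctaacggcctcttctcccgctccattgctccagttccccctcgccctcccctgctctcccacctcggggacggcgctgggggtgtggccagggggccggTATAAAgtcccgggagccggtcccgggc
Aff3: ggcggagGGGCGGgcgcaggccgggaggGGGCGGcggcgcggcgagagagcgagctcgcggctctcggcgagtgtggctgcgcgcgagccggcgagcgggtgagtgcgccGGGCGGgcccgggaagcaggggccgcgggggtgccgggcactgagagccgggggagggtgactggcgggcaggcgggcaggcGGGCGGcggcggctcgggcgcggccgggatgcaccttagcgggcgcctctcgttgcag
Ptprs: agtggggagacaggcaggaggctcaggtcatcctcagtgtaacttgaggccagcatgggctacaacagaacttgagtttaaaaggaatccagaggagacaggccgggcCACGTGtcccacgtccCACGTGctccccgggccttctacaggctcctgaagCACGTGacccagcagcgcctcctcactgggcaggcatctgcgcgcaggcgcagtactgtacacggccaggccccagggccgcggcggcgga
P2ry10: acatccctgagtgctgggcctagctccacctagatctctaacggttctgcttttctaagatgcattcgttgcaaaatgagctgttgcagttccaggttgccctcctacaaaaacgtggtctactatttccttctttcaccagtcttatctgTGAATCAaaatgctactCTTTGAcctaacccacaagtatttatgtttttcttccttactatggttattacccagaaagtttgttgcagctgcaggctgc

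All 8 genes matched the promoter table, with 12 start sites between them. In 6 of them (Aff3, Rnf157, Ephb6, Trib2, Igfbp4 and Ptprs) the windows were GC-rich, at 64.0% to 82.0% G and C, where the median of 32851 windows of the same length was 52.4%. Aff3, at 82.0%, lay above 99.3% of all windows. The windows of Il16 (48.0% to 55.2%) and P2ry10 (38.4% and 43.2%) were close to or below the median. Motifs were searched on both strands as exact letters, and no match in these windows overlapped another motif. The GC box GGGCGG was present in 5 of the 12 windows, each of another gene, and in 32.7% of all windows. The E-box CACGTG occurred 3 times in 1 window, of Ptprs, and was present in 6.02% of all windows. TATAAA was found in Igfbp4, from 28 to 23 bases before the start (12.4% of all windows), and TGANTCA, the AP-1 letters, in P2ry10 and Il16 (6.75%). CTTTGA (TCF/LEF, 13.8%) and TGTGGT (RUNX, 14%) were found in P2ry10, RUNX at its other start site, and CCGGAA (ETS, 12%) in Ephb6. Neither GTAAACA (FOXO, 3.17%) nor TTCNNNGAA (STAT, 7.02%) occurred in a window of the 8 genes. These are letter matches, not bound sites.

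Among the receptors, Ephb6 had the lowest counts but for P2ry10. Ephb6 is an Eph receptor whose kinase domain lacks catalytic activity, and it is expressed in thymocytes and T cells. It lies on chromosome 6 (mm9, 41555481 to 41570508) and had 55 reads with DMAT and 21 in its control, and 31 reads with CX4945 and 27 in its control. That corresponds to 21.6 against 7.56 CPM and 15.2 against 11.8 CPM. Both inhibitor libraries were above both controls, but the margin between CX4945 and its control was small. The ratio was 2.85 with DMAT (95% counting interval 1.7 to 4.97) and 1.29 with CX4945 (0.744 to 2.24), so a difference in the CX4945 pair was not detectable at this depth.

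P2ry10, an X-linked G protein-coupled receptor for lysophosphatidylserine found on lymphocytes, lies at 104283831 to 104300313 in mm9. It had 32 reads with DMAT and 16 in its control, and 23 reads with CX4945 and 11 in its control, or 12.6 against 5.76 CPM and 11.3 against 4.82 CPM. The inhibitor libraries were alike in level, as were the controls. P2ry10 was thus 2.18-fold higher with DMAT (1.16 to 4.25) and 2.35-fold higher with CX4945 (1.1 to 5.33). It was the member at least 2-fold higher with both compounds, on 82 reads in all. That call uses log2 ratios with a prior count of 2, which were 1.02 with DMAT and 1.1 with CX4945. On unique reads they were 0.98 with DMAT, just under 2-fold, and 1.1 with CX4945. In the whole table, 4 of 9262 genes (0.0432%) reached 2-fold with both compounds.

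Ptprs, a receptor-type tyrosine phosphatase of the LAR group that binds proteoglycans on neurons, lies on chromosome 17 (56551851 to 56615906). It had 477 reads with DMAT and 290 in its control, and 268 reads with CX4945 and 203 in its control, or 187 against 104 CPM and 132 against 88.9 CPM. In CPM both inhibitor libraries were above both controls, CX4945 by 1.26-fold over the control for DMAT (1.06 to 1.49). The ratio was 1.79 with DMAT (1.55 to 2.08) and 1.48 with CX4945 (1.23 to 1.79), and 0.851 between the control for CX4945 and that for DMAT (0.708 to 1.02).

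**Figure D1:**
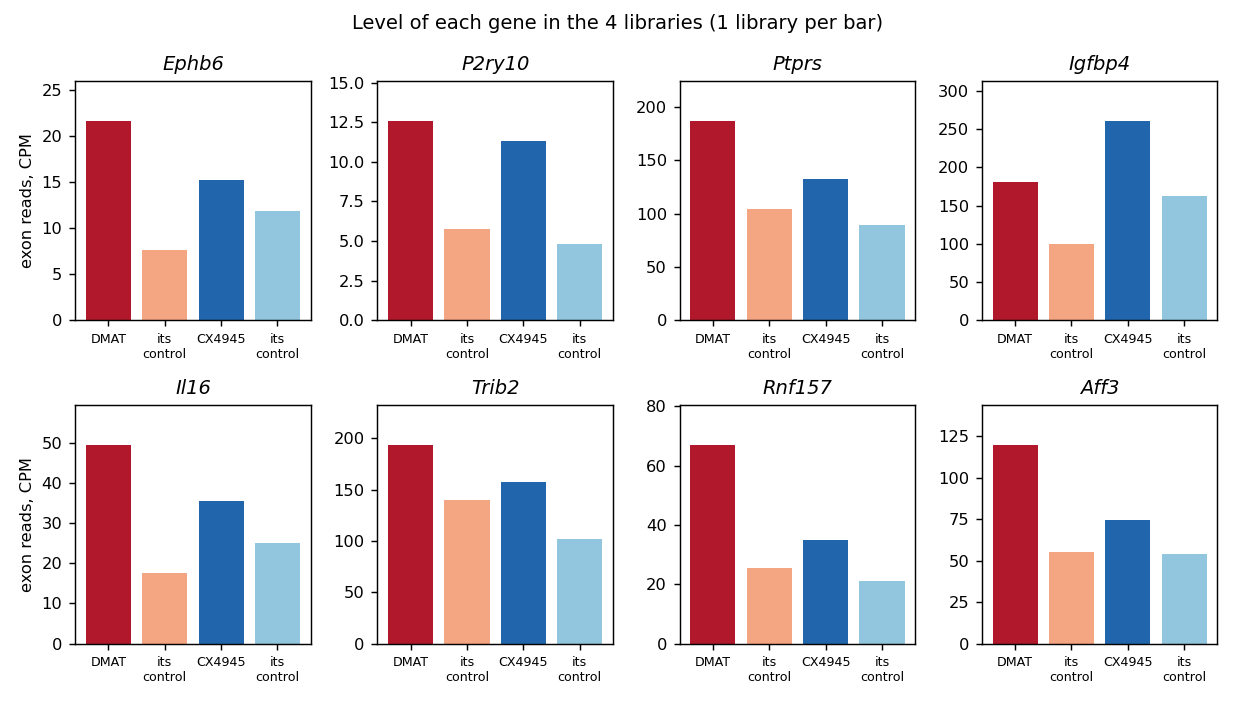
Level of the 8 genes in CPM (vertical axes, each from 0) in the DMAT library, its control, the CX4945 library and its control, with 1 library per bar. Each inhibitor bar is taller than its control bar, and the smallest step is that of Ephb6 with CX4945, at 15.2 CPM with CX4945 and 11.8 CPM in its control.

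Igfbp4 encodes a secreted protein that binds insulin-like growth factors and keeps them from their receptor. It lies on chromosome 11 (98902558 to 98915706). It had 461 reads with DMAT and 275 in its control, and 532 reads with CX4945 and 370 in its control, or 181 against 99.1 CPM and 261 against 162 CPM. The CX4945 experiment was higher throughout, so that the DMAT library stood just 1.12-fold above the control for CX4945 (0.972 to 1.28). Within pairs the ratio was 1.83 with DMAT (1.57 to 2.13) and 1.61 with CX4945 (1.41 to 1.85), and between the controls it was 1.64 (1.4 to 1.92, CX4945's over DMAT's). The difference between the 2 controls was therefore of the same size as the difference within each pair.

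Il16 encodes a precursor whose C-terminal part is released by caspase-3 and acts as a chemoattractant that binds CD4. The gene lies on chromosome 7 (90791358 to 90894236). It had 126 exon reads with DMAT and 49 in its control, and 72 reads with CX4945 and 57 in its control, or 49.5 against 17.6 CPM and 35.4 against 25.0 CPM. The ratio was 2.8 with DMAT (2.0 to 3.98) and 1.42 with CX4945 (0.987 to 2.04). Just 37.8% of these reads were unique, against 98.8% to 100% in the other 7 genes. On unique exon reads Il16 had 45 with DMAT and 22 in its control, a ratio of 2.23 (1.31 to 3.89), but 23 with CX4945 and 25 in its control, a ratio of 1.03 (0.56 to 1.9). On exon-exon reads, which span a splice junction, it had 44 with DMAT and 17 in its control, and 18 with CX4945 and 24 in its control (ratio 0.86, 0.44 to 1.65). With CX4945, then, the higher total of Il16 was carried by reads not counted as unique. There were 49 of these with CX4945 and 32 in its control (1.72, 1.08 to 2.77). That interval takes all of them as reads of Il16, though some may be shared with an overlapping gene.

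Of 2 genes that overlap Il16 in the tables, 2310044K18Rik had 0 reads in all libraries, and the other is Stard5, a lipid transfer protein gene at 90780469 to 90801637, named after its values were seen. Of the 50-base words in the GENCODE M21 transcripts of Il16, 15.5% also occur in transcripts of these 2 genes, and the other 7 members shared 0% to 3.79%. Non-unique reads of Il16 and Stard5 together numbered 167 with DMAT and 109 in its control (1.67, 1.3 to 2.15), and 109 with CX4945 and 95 in its control (1.29, 0.969 to 1.71). The unique-read values of Il16 do not rest on the shared stretches, while how the authors' counting divided the shared reads is not given in the sources used here.

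**Figure D2:**
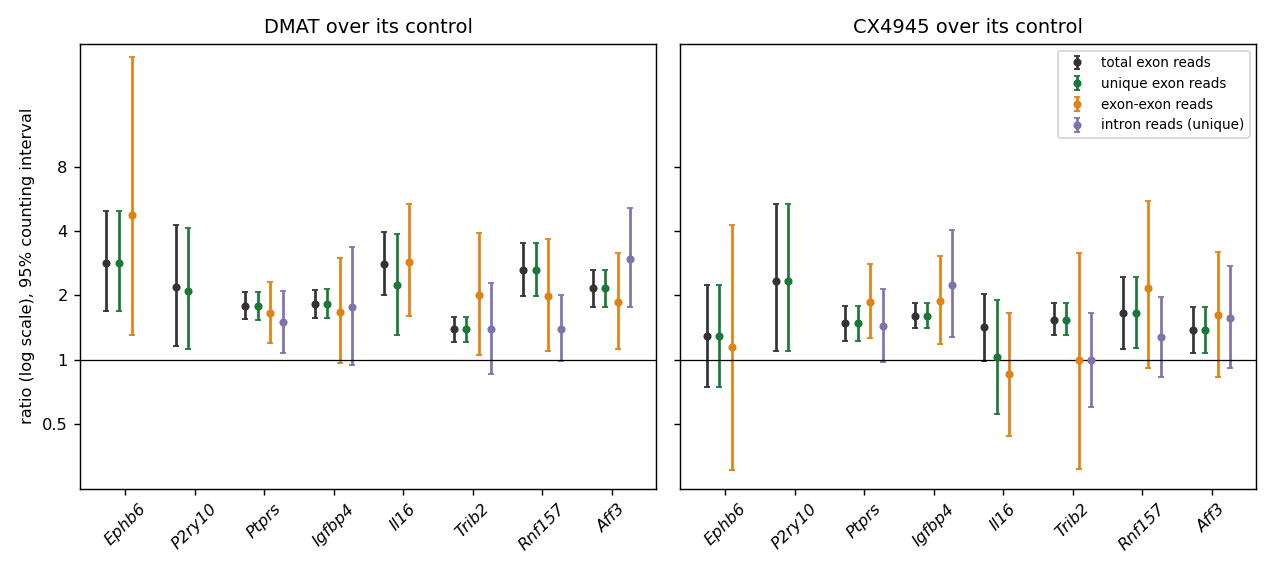
Ratio of the inhibitor library to its control (vertical axis, log scale; bars are 95% counting intervals) from total exon, unique exon, exon-exon and unique intron reads, for DMAT on the left and CX4945 on the right, where both libraries had reads and at least 10 in all. The Il16 ratio with CX4945 is 1.42 on total and 1.03 on unique reads, while total and unique ratios coincide or nearly so for the other 7 genes.

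Inside the cell, Trib2 is a pseudokinase of the Tribbles family, which brings substrates such as C/EBPα to the ubiquitin ligase COP1. It lies on chromosome 12 (15798533 to 15823683). Trib2 had 494 reads with DMAT and 388 in its control, and 322 reads with CX4945 and 234 in its control, or 194 against 140 CPM and 158 against 102 CPM. It had the smallest ratio of the 8 with DMAT, 1.39 (1.21 to 1.59), and 1.54 with CX4945 (1.3 to 1.84). The controls differed too, by a ratio of 0.733 (0.621 to 0.864, CX4945's over DMAT's), and the CX4945 library was 1.13-fold above the control for DMAT (0.973 to 1.32). Its exon-exon reads, in a gene listed with 5 exons, numbered 29 with DMAT and 16 in its control, and 7 with CX4945 and 8 in its control.

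Rnf157 encodes a RING-type ubiquitin ligase related to Mgrn1 and studied mainly in neurons. It lies on chromosome 11 (116197667 to 116274346), the chromosome of Igfbp4. It had 171 reads with DMAT and 71 in its control, and 71 reads with CX4945 and 48 in its control, or 67.1 against 25.6 CPM and 34.9 against 21.0 CPM. The DMAT library stood far above the other 3, and CX4945 was next. Its 1.36-fold step over the control for DMAT (0.967 to 1.92) was within counting error. The ratio was 2.63 with DMAT (1.98 to 3.51) and 1.66 with CX4945 (1.13 to 2.45). Rnf157 had the highest intron share of the 8 in every library: 30.8% of its unique gene reads lay outside exons with DMAT (exact binomial 95% interval 25.1% to 36.9%) and 45.4% in its control (36.6% to 54.3%), and 41.3% with CX4945 (32.4% to 50.6%) and 47.8% in its control (37.3% to 58.5%). Over all features that share was 8.9% to 9.31%. The intron reads themselves had a ratio of 1.4 with DMAT (0.986 to 2.01) and 1.28 with CX4945 (0.833 to 1.96), lower than the exon ratios in each pair, and the difference between exon and intron ratios was not tested.

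Aff3 encodes a nuclear factor of the AF4/FMR2 family, whose members take part in transcription elongation, and it was first described in lymphoid cells. It lies on chromosome 1 (38234171 to 38721800). It had 305 reads with DMAT and 154 in its control, and 152 reads with CX4945 and 124 in its control, or 120 against 55.5 CPM and 74.7 against 54.3 CPM. The 2 controls were level, with a ratio of 0.979 (0.766 to 1.25), and both inhibitor libraries were above them. The ratio was 2.16 with DMAT (1.77 to 2.64) and 1.38 with CX4945 (1.08 to 1.76). Intron reads of Aff3 were higher with DMAT by 2.96-fold (1.77 to 5.14), on 57 reads with DMAT and 21 in its control, and numbered 35 with CX4945 and 25 in its control (1.57, 0.914 to 2.74).

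**Figure D3:**
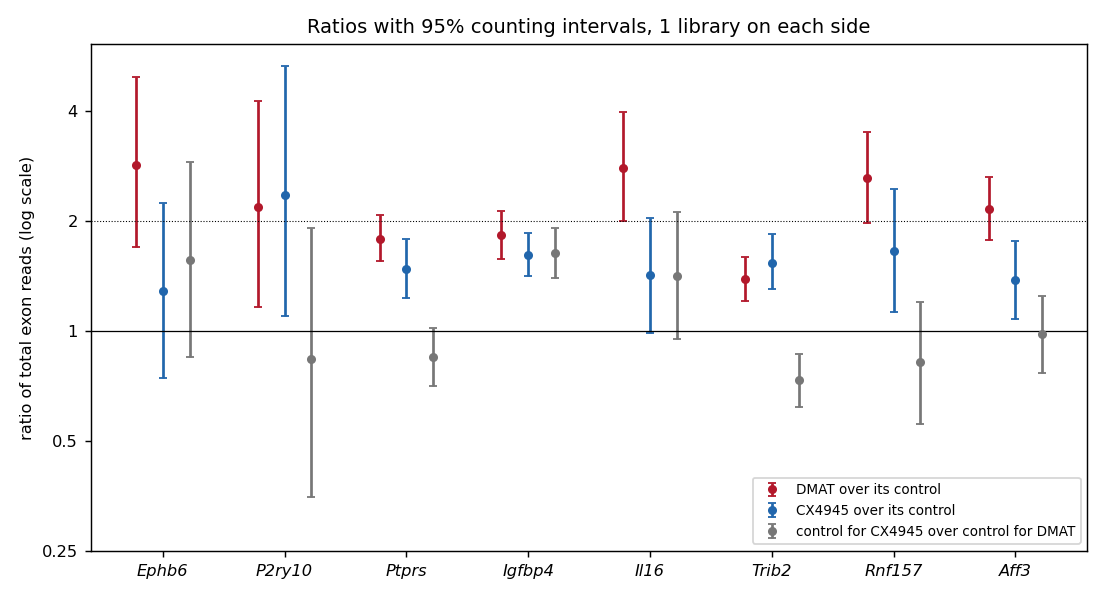
Ratio of total exon reads per gene (vertical axis, log scale; bars are 95% counting intervals, dotted line at 2) for DMAT over its control, CX4945 over its control, and the control for CX4945 over that for DMAT. With CX4945 the intervals of Ephb6 and Il16 reach below 1, and between the controls Igfbp4 lies above 1 and Trib2 below it.

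Across the set, 5 of 8 genes (Ephb6, P2ry10, Il16, Rnf157 and Aff3) were at least 2-fold higher with DMAT, where 1.09% of 9649 genes were. With CX4945 it was 1 of 8, P2ry10, where 0.887% of 9358 genes were. None of the 8 was 2-fold lower, which 1.3% of genes were with DMAT and 0.919% with CX4945. The rule used both contrasts, so nothing is read from these counts. The median log2 ratio of the 8 was 1.06 with DMAT (range 0.47 to 1.44) and 0.59 with CX4945 (0.34 to 1.10), beside 0.00 for all genes in each pair. Between the controls 0 of the 8 reached 2-fold in either direction, where 0.983% of 9564 genes reached 2-fold in favour of the control for CX4945 and 1.28% in favour of the control for DMAT. Their median there was -0.13, with Igfbp4 (0.70), Ephb6 (0.59) and Il16 (0.48) positive and the other 5 negative down to -0.45 in Trib2.

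For all 8 genes the lower of the inhibitor libraries was above the higher of the controls, which holds for 14.8% of the 9629 genes. These are the libraries the members were chosen on, so nothing is read from it. The gap was smallest in Igfbp4 (1.12-fold) and Trib2 (1.13-fold) and largest in P2ry10 (1.96-fold). A joint edgeR quasi-likelihood fit of both experiments, blocked by pair, holds the same contrasts as the choice, so it is given for the members as a description, with no call. Its log2 fold changes ran from 0.54 ± 0.11 in Trib2 and 0.72 ± 0.12 in Ptprs to 1.12 ± 0.21 in Rnf157 and 1.16 ± 0.40 in P2ry10 (SE of the fit, 4 libraries).

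Levels between genes were set side by side per kilobase of exon length (RPKM, the CPM value divided by the exon length). In the control for DMAT the order was Trib2 (32.6 RPKM), Igfbp4 (22.4), Ptprs (14.8), Aff3 (8.27), Rnf157 (2.68), Il16 (2.25), Ephb6 (2.0) and P2ry10 (1.93). The 4 highest stood at or above the 38.8th percentile of tested genes and the 4 lowest at or under the 12.5th. Neighbours among the 4 lowest did not differ beyond counting error (Rnf157 over Il16 1.19, 0.816 to 1.75), while Aff3 was 3.09-fold above Rnf157 (2.31 to 4.15) and the neighbours above it also differed. In the CX4945 library Igfbp4 (59.2 RPKM) stood above Trib2 (36.9), and in the DMAT library Trib2 (45.2) above Igfbp4 (41.0).

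The genes related to each member, in lists of family members and partners, mostly had ratios near 1. Of 56 tested genes in 8 lists, 0 passed the joint edgeR test, where 0.177% of all genes rose and 0.384% fell. At an unadjusted p under 0.05 there were 8 (14.3%, against 7.23% of all tested genes), with 3 positive and 5 negative, and DESeq2 called 0. Their values are therefore levels and ratios without a call. Among the 18 other Eph receptors and ephrins of the list, 0 had enough reads to be tested. The most abundant of them, Efnb1, Efnb3 and Efna4, had at most 14 reads in a library, and the 18 genes summed to 13 CPM with DMAT and 12.8 CPM with CX4945, against 15.5 and 9.63 CPM in the controls. Ephb6 thus had more reads in each library than any of these 18 genes. Per exon length, Efna4 stood level with it in the control for DMAT (2.03 against 2.0 RPKM).

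Igfbp4 was likewise the one IGF-binding protein with reads: Igfbp1, Igfbp2, Igfbp3, Igfbp5 and Igfbp6 had 0 reads in all libraries and Igfbp7 at most 2. Their receptor side was present. Igf1r had 86 reads with DMAT and 70 in its control, and 48 with CX4945 and 61 in its control (adjusted p = 0.953, edgeR quasi-likelihood with Benjamini-Hochberg adjustment), and ratios with DMAT and with CX4945 were 1.03 and 0.969 for Igf2r and 1.02 and 0.968 for Insr. Of 8 tested receptors for lipids and nucleotides, Gpr174, another lysophosphatidylserine receptor of T cells, had 221 reads with DMAT and 170 in its control (ratio 1.42), and 168 with CX4945 and 147 in its control (ratio 1.28), and did not pass (adjusted p = 0.299, edgeR quasi-likelihood). A630033H20Rik (P2ry10b), the neighbouring paralog of P2ry10, had at most 6 reads. Gpr65, a proton-sensing receptor, was at 0.665 with DMAT (0.525 to 0.84) and 0.471 with CX4945 (0.315 to 0.691), with an adjusted p of 0.0651 in the same edgeR fit that fell below 0.05 with DESeq2 size factors (0.0313), total-count scaling (0.0118) and unique reads (0.0041), and Gpr132 at 1.14 and 1.17.

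Ptprf, the LAR-group relative of Ptprs, had 70 reads with DMAT and 75 in its control, and 36 with CX4945 and 57 in its control (ratios 1.02 and 0.709). Ptprc, which encodes the leukocyte phosphatase CD45, stood at 190 and 200 RPKM with DMAT and CX4945, against 178 and 196 RPKM in the controls, and Ptprcap, its associated protein, at log2 0.16 in both pairs. Of the family of Aff3, Aff4, the scaffold of the super elongation complex, was at 0.754 with DMAT (0.641 to 0.886) and 0.854 with CX4945 (0.715 to 1.02), and Aff1 at 0.86 and 1.06. The elongation genes Ccnt1, Mllt1 and Eaf1 lay between log2 -0.34 and 0.09 in both pairs.

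Trib1 and Trib3, the other Tribbles genes, were lower in counts than Trib2. Trib1 had 39 reads with DMAT and 45 in its control, and 73 with CX4945 and 42 in its control (1.95, 1.32 to 2.92). Trib3 had 16 with DMAT and 68 in its control (0.256, 0.139 to 0.447), and 11 with CX4945 and 5 in its control, with a ratio of 0.0894 between its controls (0.0281 to 0.219, CX4945's over DMAT's). Mgrn1, the relative of Rnf157, had 114 reads with DMAT and 99 in its control, and 81 with CX4945 and 102 in its control. Among 13 tested ubiquitin ligase genes of T cells the median log2 ratio was 0.08 with DMAT and -0.08 with CX4945. Cd4, which encodes the receptor for the IL-16 cytokine, had 655 reads with DMAT and 699 in its control, and 546 with CX4945 and 636 in its control, with ratios of 1.02 and 0.963.

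**Figure D4:**
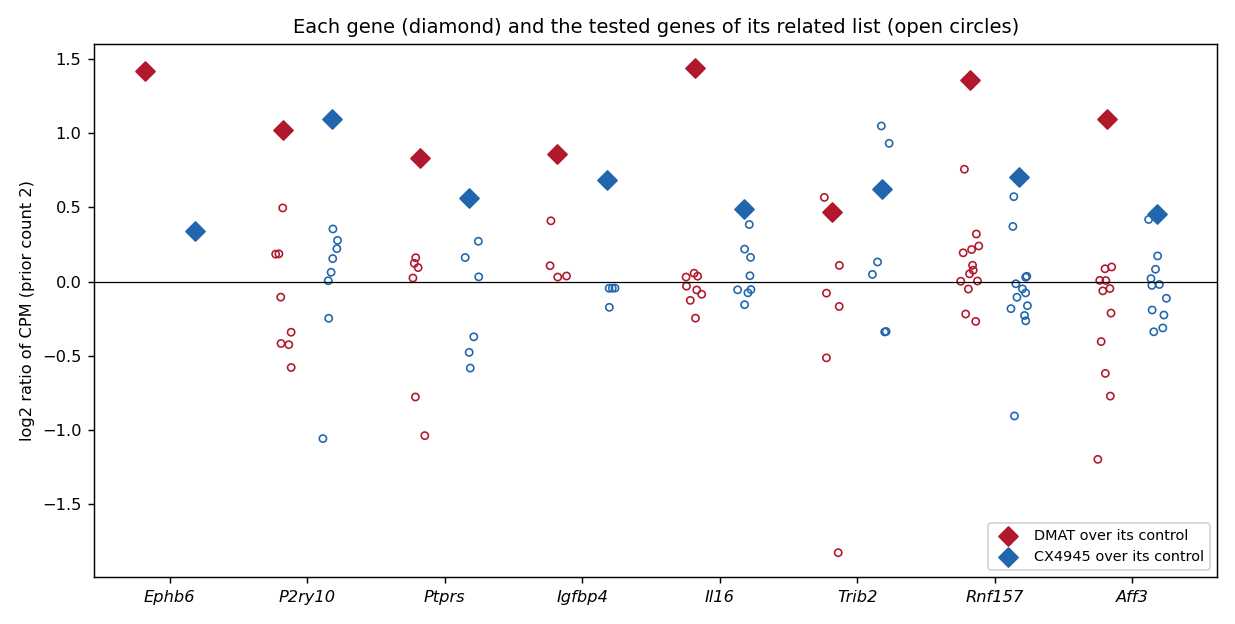
Log2 ratio of CPM (vertical axis) for each of the 8 genes (diamonds) and for the tested genes of its related list (open circles), DMAT over its control and CX4945 over its control. No gene of the Eph and ephrin list was tested, and relatives of the other 7 genes lie on both sides of 0 over the 2 pairs.

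Of the naive and quiescence genes, 3 of 19 tested rose and 0 fell in the joint fit, where 0.177% of all genes rose and 0.384% fell, a list whose shift was known when the members were picked. The count was 0 without the block, 0 with DESeq2 and 5 with unique reads. Ccr7, the chemokine receptor that guides naive T cells into lymph nodes, had 261 CPM with DMAT and 134 CPM in its control, and 195 CPM with CX4945 and 153 CPM in its control (joint log2 fold change 0.67 ± 0.12 (SE), adjusted p = 0.0132, edgeR quasi-likelihood). Tcf7, which encodes the transcription factor TCF-1, had 1020 reads with DMAT and 714 in its control, and 895 with CX4945 and 788 in its control (joint log2 fold change 0.50 ± 0.09 (SE), adjusted p = 0.0144, edgeR). Of its reads 16.2% were unique, and on those it did not pass (adjusted p = 0.488). In the joint fit 15 of the 19 had a positive log2 fold change. Among those that did not pass, S1pr1 was at a ratio of 0.735 with DMAT (0.443 to 1.2) and 1.22 with CX4945 (0.892 to 1.66). Between the controls it was at 2.32 (1.58 to 3.43, CX4945's over DMAT's). With DMAT and with CX4945, Foxo1 was at 1.07 and 1.09, and Btg2 at 0.816 and 1.17. Others were higher in both pairs, as Ets1 at 1.43 (1.29 to 1.58) and 1.12 (1.01 to 1.24). Klf2, with 8 reads in the control for DMAT, was at 1.91 (0.747 to 5.25) and 3.19 (1.86 to 5.7). The list's median log2 ratio was 0.45 with DMAT, 0.16 with CX4945 and 0.28 between the controls. Neither the Ccr7 nor the Tcf7 call held without the block (adjusted p = 0.999 each) or with DESeq2 (adjusted p = 1.0 each). In edgeR fits that left out 1 library and also dropped the block, Ccr7 passed without the CX4945 library (adjusted p = 0.00557) and not without the others (0.288 to 1.0), and Tcf7 passed in none (0.0929 to 1.0).

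The genes whose pattern over the 4 libraries lay nearest to the mean pattern of the 8 were Ccr7 (Euclidean distance of centred log2 CPM 0.213), Tnfrsf18 (0.237), Slfn8 (0.24), Bcl2l11 (0.267) and Hdac7 (0.309). The median distance of the 6963 genes with at least 200 reads was 0.925. Distances of the members themselves ran from 0.236 in Aff3 to 0.781 in Igfbp4, the gene with the largest gap between experiments. Tnfrsf18, which encodes the co-receptor GITR, had 191 reads with DMAT and 102 in its control, and 98 with CX4945 and 83 in its control, with 25.1% of reads unique. Bcl2l11, which encodes the pro-apoptotic protein BIM, had 87 with DMAT and 50 in its control, and 55 with CX4945 and 49 in its control. Hdac7, a class II histone deacetylase, had 459 CPM with DMAT and 287 CPM in its control, and 411 CPM with CX4945 and 297 CPM in its control.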

How the data were processed

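Each of the 4 libraries has 1 table of read counts per feature, deposited by the authors as raw counts with no normalization. Per the submitters' processing notes, CASAVA 1.8.2 and mm9 were used; the aligner, annotation, counting rule and strand are not given in the sources used here. Per the labels' protocols, libraries were made from total RNA with a TruSeq kit. Total exon reads were the main measure, with unique exon, exon-exon and intron reads (unique gene reads outside exons) beside them.

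Counts were scaled with TMM (edgeR 4.0.16, R 4.3.3). Log2 ratios used a prior count of 2, and genes with under 20 reads in a pair were left out of it. Ratio intervals are exact conditional (Clopper-Pearson) 95% intervals (scipy 1.17.1) and, like the floor of 3 counts, reflect counting error alone: there are no molecular identifiers, so PCR copies count as reads. The joint edgeR quasi-likelihood fit took the pair, named in the titles, as a block, over 9629 genes with Benjamini-Hochberg adjustment at 0.05. The fit and the interval were also run on simulated data. For the fit, the simulated counts had the same spread setting for every gene and no difference between pairs. They therefore do not check the calls made here. Differences between experiments in controls and in inhibitor libraries correlated across 6969 genes (r = 0.425, genes not being independent replicates). The fit leaves 1 residual degree of freedom, with 19.7 prior degrees of freedom shared over genes. The labels do not say whether libraries came from separate animals, so the spread behind the p-values may be technical. DESeq2 1.42.0 was an alternative. The members, lists and named-gene rule were chosen with earlier results of these data known. The rule took members, close paralogs, genes past the test or up to 3 with most reads per list, and the 5 nearest patterns. It was not followed throughout. Genes named outside it include S1pr1, Foxo1, Btg2, Klf2 and Ets1, and some lists have fewer genes named than it allows. One gene of the naive and quiescence list is not reported here by name.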

Additional observations from a re-analysis of the deposited data

Results flagged for a closer look

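Among the members and their related lists, 2 genes had counting intervals that excluded equality in opposite directions with the 2 inhibitors. The share of all genes that do so was not counted. The intervals hold counting error alone, so nothing is read from the count of 2. Hexim1, an inhibitor of the elongation factor P-TEFb, had a log2 ratio of -0.77 with DMAT and 0.42 with CX4945. Id3, an inhibitor of E proteins, had 0.27 with DMAT and -0.31 with CX4945. With 1 library per group the difference was not tested, and doses and experiments differ as well as compounds.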

How the results depend on the processing

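The 8 genes were picked as higher in these same libraries, so nothing is read from the signs given here. Of the 16 ratios of the 8 genes, 0 were below 1 with unique reads, DESeq2 size factors, total-count scaling or a prior count of 0.5. The same held against the other inhibitor's control and the mean of both controls. With exon-exon reads, 11 had enough reads and 1, Il16 with CX4945, was below 1 (log2 -0.20). Against the other inhibitor's control, the log2 ratio of Igfbp4 was 0.16 with DMAT and 1.39 with CX4945, and that of Trib2 0.92 and 0.18. The median of the 8 lay between 1.02 and 1.10 with DMAT and between 0.58 and 0.66 with CX4945, and over the genes with enough exon-exon reads it was 0.88 (6 genes) and 0.87 (5 genes). Leaving out 1 library at a time without the block, the joint log2 fold change ranged from 0.44 to 1.15 in Igfbp4, 0.33 to 0.78 in Trib2, 0.58 to 1.51 in Rnf157, 0.44 to 1.12 in Aff3 and 0.44 to 0.94 in Ptprs, and all 8 stayed positive. The lone library left is assumed to vary like the others.

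Counts over all genes moved more. With no minimum of reads, 409 genes were at least 2-fold higher and 358 lower with DMAT, 508 and 574 with CX4945, and 542 and 409 in the control for CX4945 over that for DMAT, which with exon-exon reads had 54 and 71. Against the other inhibitor's control, 161 were higher with DMAT, and 152 higher and 212 lower with CX4945. With unique reads, 45 were higher with CX4945. The joint fit called 17 genes that rose and 37 that fell. Without the replicate block 0 rose and 1 fell, and 2 rose and 1 fell with DESeq2. With DESeq2 size factors 35 rose, with total-count scaling 44 rose and 68 fell, and with unique reads 45 rose and 63 fell. Among the 8 related lists without a call, Gpr65 passed with DESeq2 size factors, total-count scaling and unique reads. Without 1 library and without the block, Gpr65 and Hspa8 passed when the DMAT library was left out and Cblb when the CX4945 library was. Of the members, 82 reads in all for P2ry10 and 134 for Ephb6 limit what can be seen. The cause of these shifts was not tested.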
